A study of Mus musculus with 16 samples.

Results

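Collagen chain genes are the genes that encode the alpha chains of the collagens, taken here as every gene symbol made of Col, a number, the letter a and a number. The table that pairs probe sets with genes held 42 of them, among 18193 genes with a single symbol, and they were read by 82 probe sets. For each gene the probe set with the highest mean signal was used, and a gene was counted as detected when its signal reached 200 on at least 2 of 16 arrays. By that rule 28 collagen genes were detected and tested, of 11449 genes tested in all, and 14 were not. The choice used levels but no difference between groups.

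A collagen is made of 3 alpha chains that wind into a triple helix, and chains of different genes assemble into fibrils, networks or filaments outside the cell. Fibroblasts are the main source of the fibrillar collagens I, III and V of connective tissue and also make collagen VI and the basement membrane collagen IV. The helix is stable only after proline residues have been hydroxylated in the endoplasmic reticulum, where lysine residues are hydroxylated as well. The prolyl and lysyl hydroxylases are enzymes that need iron, oxygen and ascorbate. Some of the genes of these enzymes are known targets of the hypoxia-inducible factor HIF.

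The cells were primary mouse embryonic fibroblasts from e14.5 embryos, in 4 lines that were each infected with a Cre adenovirus at passage 3 and then expanded at least 100-fold. Cre deletes conditional (flox) alleles. The line flox1 (CBP+/flox) carried 1 conditional allele of CBP, the histone acetyltransferase encoded by Crebbp, and flox2 (p300 +/flox) carried 1 of the related p300, encoded by Ep300. These 2 control lines are therefore not wild type. In triCH1flox1 (CBP CH1/flox;p300 CH1/CH1) and triCH1flox2 (CBP CH1/CH1;p300 CH1/flox), 3 alleles lacked the CH1 domain, a part of CBP and p300 that binds transcription factors such as HIF, and the remaining allele was the conditional one. Each line was given ethanol vehicle, 100 ng/ml of the histone deacetylase inhibitor trichostatin A (TSA), 100 µM of the iron chelator dipyridyl (DP) or both, with DP or vehicle added 30 min after TSA or vehicle, and RNA was taken 3 h later. Each of the 16 combinations was measured on 1 array. There were no replicate cultures. The p-values of treatment effects therefore measure how unevenly the lines changed, and those between classes measure the spread between line means.

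All 16 arrays had been scaled to a trimmed mean of 500. A signal of 200 was reached by 36.8% to 42.6% of the probe sets. The flox1 vehicle array stood apart: its 3' to 5' signal ratio was 2.59 for Gapdh (other arrays 0.907 to 1.26, 15 arrays) and 2.07 for actin (1.29 to 1.63). That array and the flox2 DP array also had high 18S ribosomal RNA signals, 6001 and 4298 against at most 1806 on the other 14. Calls of collagen genes that are lost without either array are given with that value. Calls of genes outside the collagens were not checked without these arrays. All 11 fibroblast markers on the array passed the filter on signal, as did 4 of 4 neural, 3 of 4 osteoblast, 3 of 5 skeletal muscle, 3 of 6 macrophage, 3 of 7 epithelial, 3 of 8 chondrocyte and 0 of 6 endothelial markers. Line means of Crebbp were 993 in flox1, 1350 in flox2, 952 in triCH1flox1 and 1470 in triCH1flox2, and those of Ep300 were 836, 436, 987 and 555. The labels do not say where these probe sets lie relative to the deleted exons. Control arrays had Y-linked Eif2s3y signals of 974 to 1519 and Xist signals of 10.1 to 111, and triCH1 arrays had Eif2s3y at 8.9 to 82.9 and Xist at 1751 to 5389. Sex and CH1 class therefore cannot be told apart. Barcodes in the labels form 2 series, and the second holds the 3 treated triCH1flox1 arrays and the flox2 array with both agents.

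Of the fibrillar collagen genes, whose products build the banded fibrils of connective tissue, 9 of 11 were detected. Col1a1 and Col1a2, which encode the chains of collagen I, had signals of 28928 to 36234 and 30467 to 42209 over the 16 arrays. The highest signal of any probe set was 42346 to 54585 per array, so both lay in the upper part of the range of the arrays. Col3a1, the single chain of collagen III, read 18069 to 27112. Col5a1 and Col5a2, chains of the collagen V that is built into type I fibrils, read 17313 to 25534 and 24817 to 35170. Col5a3 and Col11a1, minor fibrillar chains, and Col2a1, the chain of the main cartilage collagen, were also detected on every array. Col27a1 reached 200 on 15 arrays. Col11a2 and Col24a1 were not detected.

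Detection in the other classes ran from all members to none. Of the 6 basement membrane chains, Col4a1, Col4a2 and Col4a5 were detected on 16 arrays each and Col4a3, Col4a4 and Col4a6 on none. Of the 5 chains of the beaded-filament collagen VI on the array, Col6a1, Col6a2 and Col6a3, which form the common heterotrimer, were detected on all arrays, and Col6a4 and Col6a5 on none. All 3 short-chain genes passed, Col8a1 on 16 arrays, Col8a2 on 7 and Col10a1, the collagen of hypertrophic cartilage, on 6. Among the 9 FACIT genes, whose products attach to fibril surfaces, Col12a1 and Col16a1 were on every array. Col14a1, Col22a1, Col9a1, Col19a1 and Col20a1 passed on 2 to 4 arrays, and Col9a2 and Col9a3 did not pass. Col18a1, whose product holds the endostatin fragment, Col7a1, the anchoring-fibril chain of skin, and Col15a1 completed the detected set. The 4 transmembrane genes Col13a1, Col17a1, Col23a1 and Col25a1 and the unclassed Col26a1 were not detected.

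In all, 19 genes reached 200 on all 16 arrays and 8 on only 2 to 7. At the edge of the rule, Col9a1, Col19a1 and Col20a1 passed with 2 arrays each and highest signals of 230, 224 and 224. Just outside it, Col25a1 reached 200 on 1 array with 240, and the highest signal of Col6a4 was 198. Changes were measured on log2(signal + 50), and the median standard error of the DP or TSA effect over 4 lines was 0.09 for the genes on all 16 arrays and 0.35 for the other 9.

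**Figure D1:**
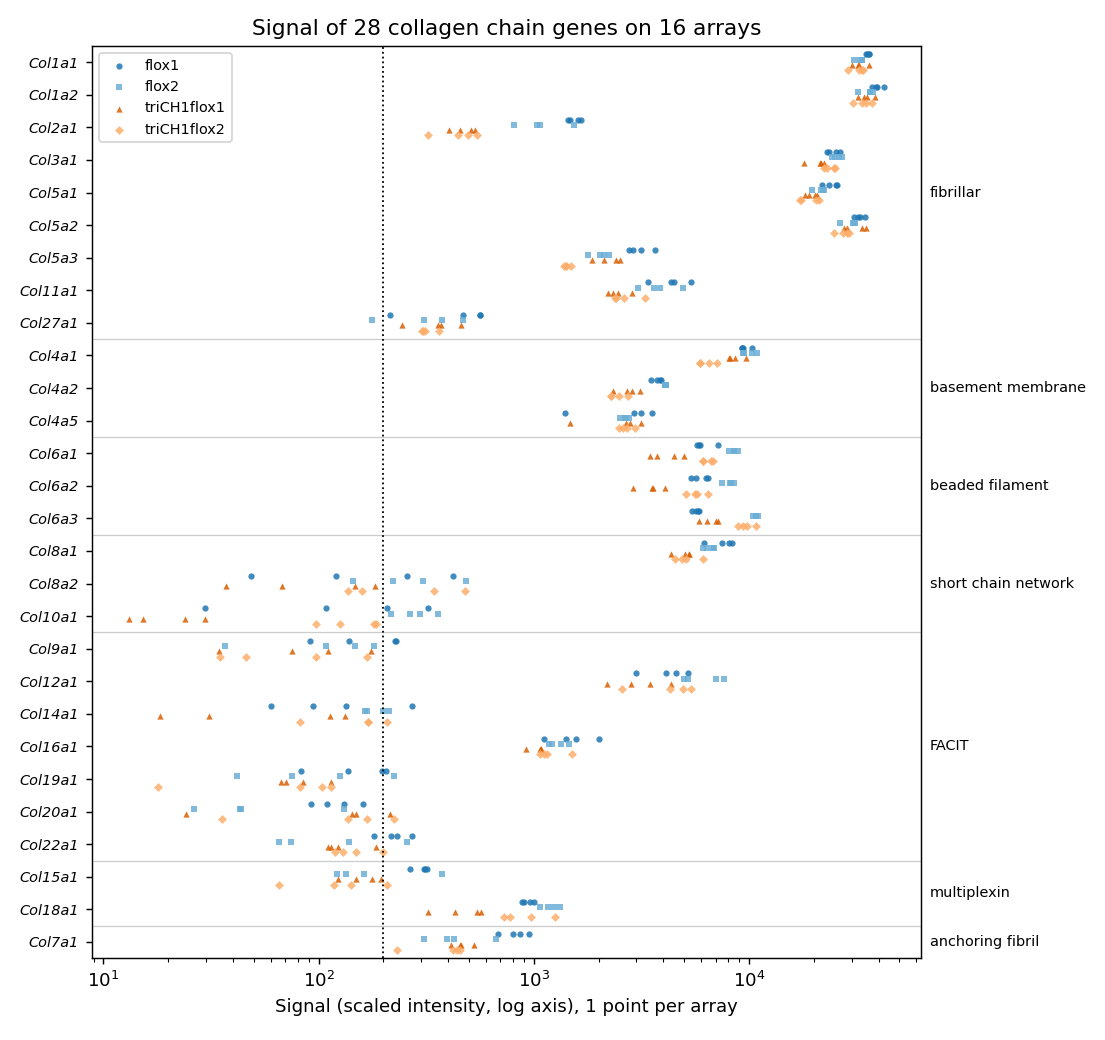
Signal of the 28 detected collagen chain genes on a log axis, with 1 point per array and 4 arrays per line; the dotted line marks the detection level of 200. Levels of different probe sets are not comparable with each other; within a gene the 4 lines can be compared, and 9 genes have points on both sides of 200.

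The first comparison asks whether collagen transcripts differ between cells with and without an intact CH1 domain, over all treatments. Of 28 genes, 26 had a mean below 0 for triCH1 minus control on the log2 scale, where 51.1% of all genes tested did, and the median difference was -0.44 against -0.01 over all genes. These counts hold members that the filter favoured: 6 of the 28 (Col9a1, Col10a1, Col14a1, Col15a1, Col19a1 and Col22a1) passed it through control arrays and would not have passed on triCH1 arrays alone, and Col20a1 passed it through triCH1 arrays. Of the 21 members that passed within each class, 20 were below 0, against 48.0% of all such genes, with a median of -0.40 against 0.01. With no filter 35 of 42 were below 0, against 57.0% of all genes, with a median of -0.27 against -0.04. Col2a1 fell, and was the single member called by limma at an adjusted p under 0.05. Of all genes tested, 0.157% were called, 0.14% lower and 0.0175% higher. At an unadjusted p under 0.05 there were 9 members. The share of all genes at that level is not given, so such counts, here and below, cannot be set against it.

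Col2a1 lies at chr15:97975602-98004724 (GRCm38.p6, RefSeq). It read 1473, 1610, 1663 and 1439 in flox1 under vehicle, TSA, DP and both, and 1531, 1068, 1032 and 806 in flox2. It read 454, 531, 403 and 510 in triCH1flox1 and 543, 322, 445 and 493 in triCH1flox2. Every triCH1 array was below every control array under every treatment. Col2a1 was 2.64-fold lower in the triCH1 lines, a log2 difference of -1.40 with a standard error of 0.18 (limma adjusted p = 0.0309, 2 lines against 2). The difference was -1.50 in the vehicle arrays, -1.55 with TSA, -1.52 with DP and -1.03 with both. Col2a1 was called in 9 of 16 alternatives, with differences from -1.65 to -1.16. The call was lost when either triCH1 line was left out, on the vehicle arrays alone, with a filter at 400 or within each class, with quantile normalization and without the variance trend, and its highest adjusted p was 0.416. Beside it, 3 of 8 chondrocyte markers passed the filter on signal. Their differences were -0.66 for Acan (adjusted p = 0.367), -0.43 for Comp (adjusted p = 0.725) and 0.09 for Sox9 (adjusted p = 0.902), and the summed signal of the 8 was 997 to 1732 on the control arrays and 728 to 1400 on the triCH1 arrays. Their part in the result was not tested.

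**Figure D2:**
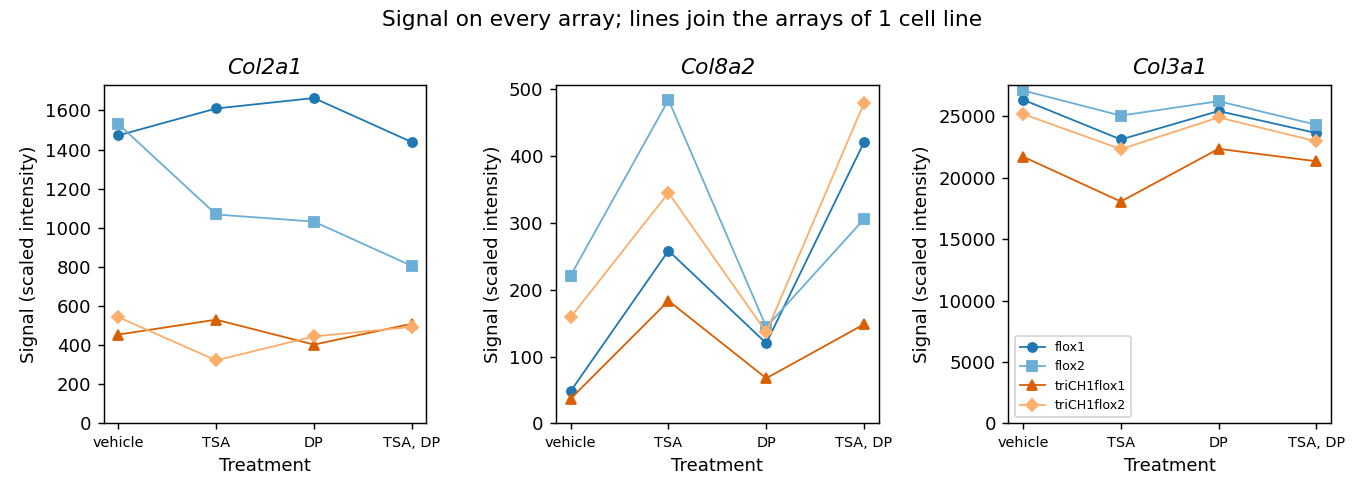
Signal of Col2a1, Col8a2 and Col3a1 on all 16 arrays, on linear axes that start at 0, with treatments on the x axis and the arrays of each line joined. Col2a1 separates the 2 control lines from the 2 triCH1 lines, Col8a2 is higher on the TSA array than on the vehicle array of each line, and Col3a1 is slightly lower there.

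The other members varied in how far the lines were apart. Both triCH1 line means were below both control line means for 14 of 28 genes, against 20.9% of all genes tested, and above for 0 of 28, against 21.7%. Among the 21 that passed the filter within each class it was below for 11, against 19.6% of all such genes. All 8 triCH1 arrays were below all 8 control arrays for 3 genes, Col2a1, Col4a2 and Col8a1, against 0.646% of all genes, and above for 0, against 0.245%. Col4a2, a chain of the ubiquitous basement membrane collagen, read 3524 to 3896 in flox1, 4088 to 4108 in flox2, 2337 to 3116 in triCH1flox1 and 2276 to 2745 in triCH1flox2. Its difference was -0.59 with a standard error of 0.11 and did not pass (limma adjusted p = 0.128). Col8a1, a short-chain network collagen, read 6209 to 8362 and 6138 to 6864 in the control lines and 4334 to 5282 and 4530 to 6099 in the triCH1 lines, a difference of -0.47 (standard error 0.10, limma adjusted p = 0.184). For Col11a1, a fibrillar chain that nucleates fibrils, line means were 4388, 3862, 2465 and 2683 in the order of flox1, flox2, triCH1flox1 and triCH1flox2. Its difference was -0.66 (standard error 0.11, limma adjusted p = 0.106). These 3 genes and Col2a1 were the 4 members called when all 16 arrays were fitted with the line as a random block, a fit that called 2.23% of all genes. With a consensus correlation of 0.128, that fit treats the arrays of a line nearly as replicates of its genotype. The treatments of a line are not such replicates, so these calls overstate the evidence from 2 lines against 2. Without flox2 the called members were 3 (Col2a1, Col11a1 and Col7a1) and 1.79% of all genes were called. There the control class is 1 line, which is assumed to vary like the others.

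By class, 9 of 9 fibrillar genes had values below 0, with a median of -0.17 and a range from -1.40 to -0.07. For the genes of the major fibrils the differences were -0.07 for Col1a1, -0.12 for Col1a2, -0.17 for Col3a1, -0.24 for Col5a1 and -0.09 for Col5a2, with standard errors of 0.08 to 0.09 and none called. In collagen IV, Col4a1 was at -0.40 and Col4a5, which is X-linked, at -0.04. Col4a1 lies beside Col4a2 on chromosome 8 in the opposite orientation, and the annotated genes overlap by 85 bases. In collagen VI the differences were -0.48 for Col6a1, -0.63 for Col6a2 and 0.03 for Col6a3, with standard errors of 0.21, 0.22 and 0.28. Col18a1 was at -0.67 (standard error 0.27), and the 6 FACIT genes below 0 were joined by Col20a1 at 0.35. The filter on signal favoured most of these FACIT signs. Col9a1, Col14a1, Col19a1 and Col22a1 passed it through control arrays and Col20a1 through triCH1 arrays. The median of the members moved to -0.27 without flox1 (25 of 28 below 0, against 49.4% of all genes). It moved to -0.23 without triCH1flox1 (24 of 28, against 50.4%). Of the 11 fibroblast markers, Thy1 was lower in the triCH1 lines (-0.87, limma adjusted p = 0.0206) and none was higher, and their summed signal was 111532 to 133665 on control arrays and 93965 to 119639 on triCH1 arrays. No osteoblast, epithelial, macrophage, skeletal muscle or neural marker passed between the classes or with DP. The part of these markers in the collagen differences was not tested. In bulk RNA, fewer cells of a type and less RNA per cell cannot be told apart.

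**Figure D3:**
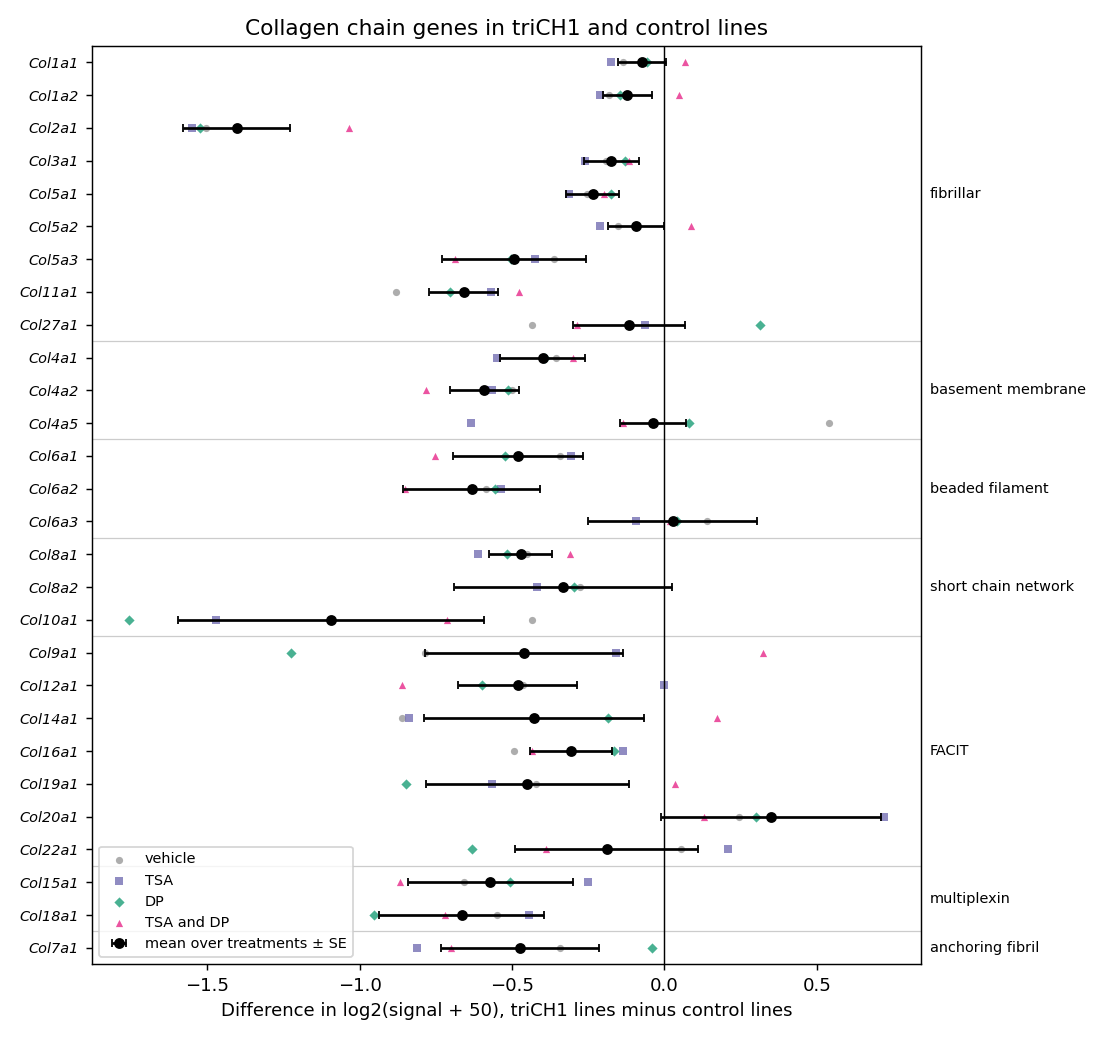
Difference in log2(signal + 50) between the triCH1 lines and the control lines for the 28 detected collagen chain genes. Black points are means over treatments with their standard errors (2 lines against 2) and coloured points are the differences under each treatment. Of 28 means, 26 lie left of 0, with Col2a1 at -1.40 and Col6a3 and Col20a1 to the right. The filter on signal favoured the sign of weak members that passed it through a single class, among them Col20a1.

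The second comparison asks what 3 h of deacetylase inhibition does to these genes. With TSA against vehicle over 4 lines, Col8a2 rose and Col3a1 fell, so 2 of 28 collagen genes were called by limma, against 28.3% of all genes tested (15.8% higher and 12.5% lower). At an unadjusted p under 0.05 there were 4 members. The median over members was -0.03, against 0.03 over all genes, and the median size of change was 0.15, against 0.28. TSA with DP against DP, a comparison that shares no array with the first, gave 1 called member of 28, Col8a2 again, which was higher. There 30% of all genes were called, 17.8% higher and 12.2% lower, and 2 members had an unadjusted p under 0.05.

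Col8a2 encodes the second chain of collagen VIII, a short-chain network collagen of vessel walls and of Descemet's membrane in the cornea. It read 48.4, 221, 37.1 and 159 on the vehicle arrays of flox1, flox2, triCH1flox1 and triCH1flox2 and 258, 484, 183 and 345 on their TSA arrays. The filter on signal was passed through the TSA arrays: 6 of them reached 200, and 1 array without TSA did. In each line the TSA array was higher, although the ranges over lines overlapped. The rise was 1.24 on the log2 scale (standard error 0.29, limma adjusted p = 0.0045, higher in 4 of 4 lines), or 2.36-fold. In the presence of DP it read 120, 144, 67.5 and 136 without TSA and 420, 306, 148 and 479 with it, a rise of 1.15 (standard error 0.29, limma adjusted p = 0.00692, higher in 4 of 4 lines). Here the lowest TSA value was above the highest DP value. The size depends on the constant added to the signal, since Col8a2 was near the detection level, and ran from 0.72 to 1.53 for TSA alone. Without the flox1 vehicle array the change with TSA was 0.92 (limma adjusted p = 0.0323), and with no filter on signal the adjusted p was 0.0119. Without triCH1flox1, whose treated arrays have barcodes of another series, it was 1.12 and just missed the threshold (adjusted p = 0.0525). Without triCH1flox2 the change in the presence of DP was 0.96 and also missed it (adjusted p = 0.12).

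Col3a1 read 26359, 27112, 21720 and 25196 with vehicle and 23122, 25065, 18069 and 22336 with TSA, and was lower in 4 of 4 lines. The fall was small, 1.14-fold or -0.18 on the log2 scale (standard error 0.06, limma adjusted p = 0.0285). With DP present the change was -0.10, again below 0 in 4 of 4 lines, and did not pass (adjusted p = 0.233). The second probe set of Col3a1 changed by -0.31 with TSA (adjusted p = 0.0587). Without the flox1 vehicle array the change was -0.18 and was not called (adjusted p = 0.0637). The call was lost in 11 of 17 other settings, among them each one that left out a line, and the adjusted p ran from 0.0168 to 0.179.

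The remaining members gave no call with TSA. Col8a1, the partner chain of Col8a2, was at -0.24 and below 0 in 4 of 4 lines (adjusted p = 0.054), and Col27a1 was at -0.56, also below 0 in 4 of 4 lines (adjusted p = 0.104). Its second probe set gave 0.12. Col1a1 was at -0.04 with a 95% interval of -0.17 to 0.10, and Col1a2 at -0.08 with -0.23 to 0.07, both from probe sets in the upper part of the signal range. The second Col1a1 probe set was uneven between lines with TSA, at -0.34 in flox1, 0.02 in flox2, 0.25 in triCH1flox1 and 0.86 in triCH1flox2 (mean 0.20, adjusted p = 0.469). Col5a1 and Col5a2 were at -0.12 and -0.06, Col4a1 and Col4a2 at -0.05 and 0.03, Col6a1, Col6a2 and Col6a3 at 0.06, -0.02 and -0.15, and Col18a1 at 0.28 (4 of 4 lines above 0, adjusted p = 0.167). For all 19 genes on 16 arrays the 95% interval lay within a 2-fold change either way. Without flox2, Col27a1 was called at -0.79 (adjusted p = 0.0256, with 21.4% of all genes called). With DP present the values were -0.01 for Col1a1 and Col1a2, -0.16 for Col5a1, -0.08 for Col5a2, -0.03 for Col4a1, -0.11 for Col4a2, 0.06 for Col6a1, -0.09 for Col6a2, -0.04 for Col6a3 and 0.21 for Col18a1, none of them called. In the presence of DP 23 of 28 members were below 0, against 47.7% of all genes, with a median of -0.09 against 0.02. That count was 17 without flox2 and 17 without triCH1flox2, each against 46.8% of all genes. The sign was shared by the 2 comparisons for 19 of 28 members, and for 76.9% of all genes.

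No member differed between the classes in its response to TSA (limma, 0 of 28, with 0% of all genes called), and 1 had an unadjusted p under 0.05. That gene was Col4a5, at -1.18 for triCH1 minus control (adjusted p = 0.809). It read 1403, 2511, 2789 and 2724 with vehicle and 3535, 2671, 1477 and 2596 with TSA, so the value came from a low flox1 vehicle array and a low triCH1flox1 TSA array. For Col8a2 the difference in response was -0.14, with a 95% interval of -1.39 to 1.10. Of the 11 fibroblast markers, 4 fell with TSA: Twist1 (-1.30), Prrx1 (-1.11), Pdgfrb (-0.92) and Twist2 (-0.65), where 12.5% of all genes were called lower. None rose, and their summed signal was 108010 to 133665 with vehicle and 93965 to 121665 with TSA. The chondrocyte marker Comp (0.68), the neural markers Tubb3 (1.18) and Nes (0.84) and the muscle marker Acta1 (0.34) rose, where 15.8% of all genes were called higher. With TSA in the presence of DP, Tubb3 rose again (0.97), but Comp (0.003), Nes (0.31) and Acta1 (0.18) were not called. There the muscle marker Des rose (0.81), the same 4 fibroblast markers fell and Thy1 rose (0.34). No osteoblast, epithelial or macrophage marker passed. The part of these markers in the changes of Col8a2 and Col3a1 was not tested. Of the 6 collagen receptor genes tested, Ddr1, a receptor kinase for collagen, fell with TSA (-0.89, adjusted p = 3.55e-05) and with TSA in the presence of DP (-0.90, adjusted p = 3.14e-05). Of all genes tested, 12.5% and 12.2% were called lower in these comparisons, so 1 of 6 is near that share.

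**Figure D4:**
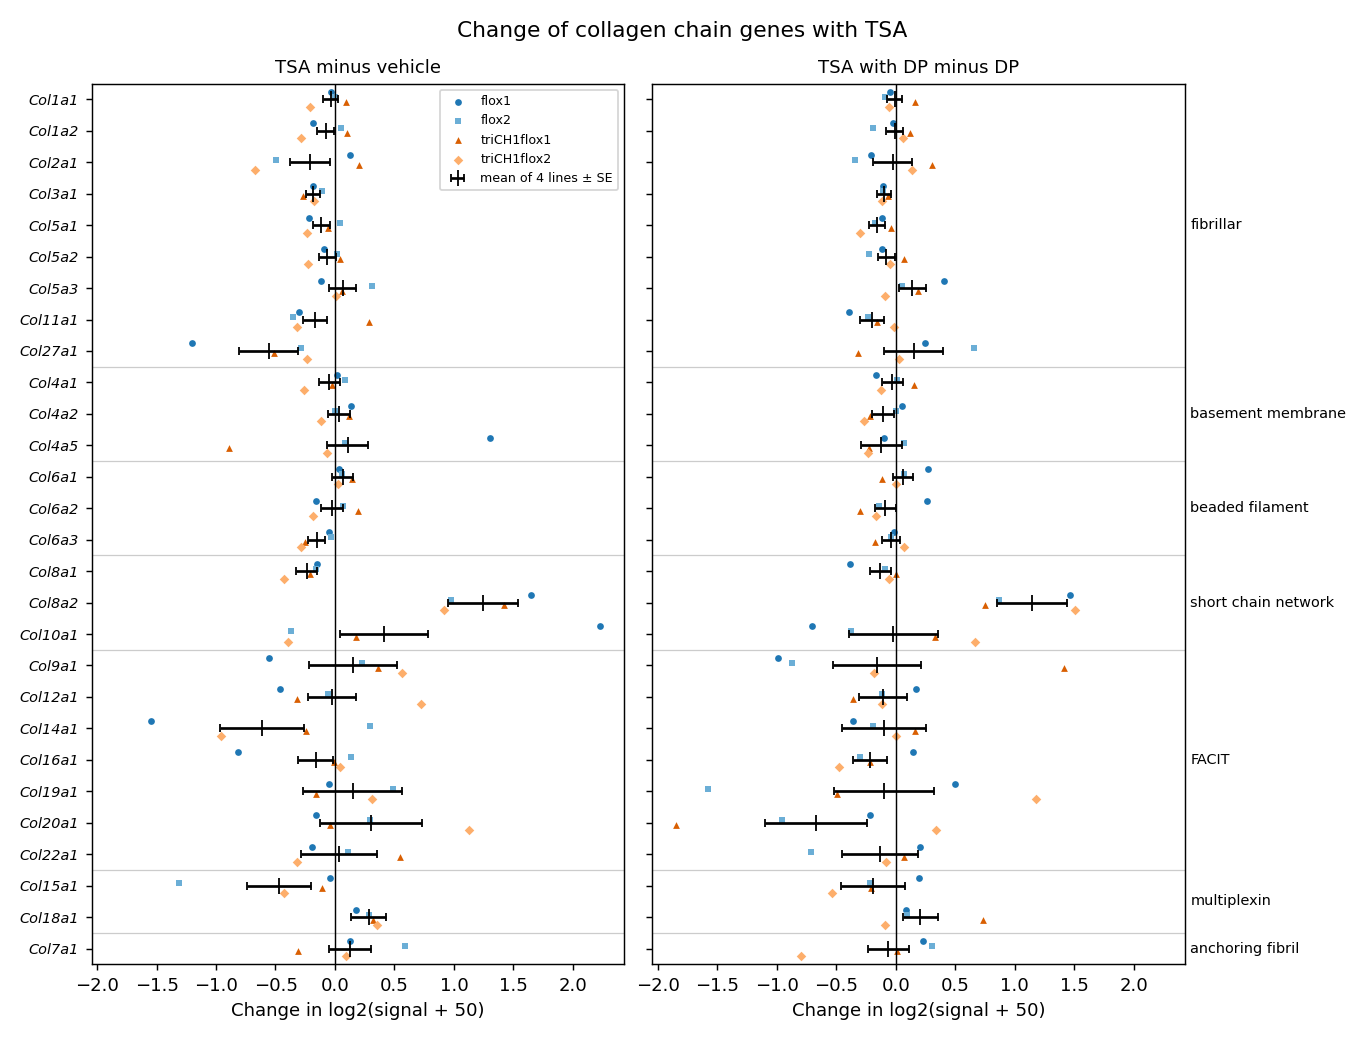
Change of the 28 detected collagen chain genes with TSA, in log2(signal + 50), without DP (left) and with DP (right). Coloured points are the 4 lines and black bars the mean with its standard error; Col8a2 is to the right of 0 in all lines on both sides, at 1.24 and 1.15, and the major fibrillar genes lie close to 0.

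Promoter sequences are shown for the 2 genes called with TSA and, for contrast, for Col1a2, a fibrillar gene that was not. They are RefSeq's for GRCm38.p6, the 250 bases before the annotated start, 5′ to 3′ on the gene's strand. Capitals mark matches on either strand to 4 short motifs. The TATA box was searched as TATAAA and the GC box, bound by Sp factors, as GGGCGG. The CCAAT box was searched as its name spells it, and the core of the HIF response element, called the HIF core here, as ACGTG. The windows are Col8a2 at chr4:126286544-126286793, Col3a1 at chr1:45311288-45311537 and Col1a2 at chr6:4505368-4505617, all on the plus strand, each just before its gene, which ends at 126314330 for Col8a2, 45349706 for Col3a1 and 4541543 for Col1a2.
Col8a2: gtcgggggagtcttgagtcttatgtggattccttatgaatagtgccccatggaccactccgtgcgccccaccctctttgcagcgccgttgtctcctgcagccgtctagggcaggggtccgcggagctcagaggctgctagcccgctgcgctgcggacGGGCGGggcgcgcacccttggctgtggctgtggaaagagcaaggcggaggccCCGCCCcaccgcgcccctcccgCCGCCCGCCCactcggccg
Col3a1: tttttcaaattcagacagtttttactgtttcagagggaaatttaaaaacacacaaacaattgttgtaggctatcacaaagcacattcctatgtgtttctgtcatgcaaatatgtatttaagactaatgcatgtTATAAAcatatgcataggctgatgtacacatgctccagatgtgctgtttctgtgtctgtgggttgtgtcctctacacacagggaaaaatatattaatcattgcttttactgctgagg
Col1a2: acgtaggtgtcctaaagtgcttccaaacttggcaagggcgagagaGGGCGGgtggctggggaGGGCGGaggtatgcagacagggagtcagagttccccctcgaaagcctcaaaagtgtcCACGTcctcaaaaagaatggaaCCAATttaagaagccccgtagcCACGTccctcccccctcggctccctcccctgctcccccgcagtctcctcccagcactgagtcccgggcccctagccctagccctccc

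The Col8a2 window held 4 GC boxes, 2 of which overlap, and none of the other motifs. The Col3a1 window held a single match to the TATA motif, which begins 117 bases before the annotated start. The Col1a2 window held 2 GC boxes, 2 HIF cores and 1 CCAAT box. A GC box was in the windows of 13 of the 22 detected collagen genes that have one in the RefSeq table, against 35.4% of all genes in that table. A CCAAT box was in 10 of 22, against 37.5%, a TATA box in 2 of 22, against 14.3%, and a HIF core in 2 of 22, Col1a2 and Col5a1, against 18.5%. A match is a description of these letters and not of a bound site. Col1a1, Col2a1 and Col5a2 have no window in that table.

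The third comparison asks whether iron chelation, which activates HIF, changes collagen transcripts within 3 h. No collagen gene passed with DP against vehicle over 4 lines (limma, 0 of 28), against 1.7% of all genes tested, and 2 had an unadjusted p under 0.05. The count was also 0 of 28 in the control lines (1.55% of all genes, 2 members at an unadjusted p under 0.05), in the triCH1 lines (0.576% of all genes, 0 members), and for the difference between them (0.0262% of all genes, 0 members). With TSA present, DP again gave 0 of 28, against 0.148% of all genes, with 2 members at an unadjusted p under 0.05. The median change over members was -0.02 with DP, against -0.03 over all genes.

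For the major fibrillar genes the changes were small. Col1a1 read 36214, 33481, 30148 and 33386 with vehicle and 36190, 32659, 32371 and 33803 with DP, in the order of the lines above. Its change was 0.02 with a 95% interval of -0.11 to 0.16. Col1a2 was at -0.02 (-0.17 to 0.13), Col3a1 at -0.02 (-0.14 to 0.11), Col5a1 at 0.05 (-0.10 to 0.20) and Col5a2 at 0.09 (-0.06 to 0.24). In collagens IV and VI, Col4a1 was at -0.01, Col4a2 at 0.04, Col6a1 at -0.11, Col6a2 at -0.09 and Col6a3 at -0.04, and Col18a1 was at -0.14. For all 19 genes on 16 arrays the interval lay within a 2-fold change either way, and for 4 of the other 9 it did. With TSA present the fixed set of 11 collagen I, III to VI and XVIII genes had DP changes from -0.21 for Col18a1 to 0.07 for Col6a3. Their differences in DP response, triCH1 minus control, ran from -0.40 for Col18a1 to 0.08 for Col5a1.

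The members with the smallest unadjusted p were Col11a1 and Col4a5. Col11a1 read 5354, 4930, 2327 and 3283 with vehicle and 4467, 3603, 2468 and 2422 with DP, lower in 3 of 4 lines. Its change was -0.26 (adjusted p = 0.295), and with TSA present it was -0.29 and below 0 in 4 of 4 lines (adjusted p = 0.773). Its second probe set gave 0.15. Col4a5 was at 0.37 (adjusted p = 0.381). With the probe set used, its change was 1.13 in flox1, from the low vehicle array, against 0.08, 0.17 and 0.11 in the other lines. Its second probe set read 443.5, 472.8, 508.2 and 521.4 with vehicle and 751.8, 573.5, 853.2 and 699.5 with DP, higher in each line. Col12a1, a FACIT chain that rises in stretched connective tissue, was uneven between lines, at 0.16 in flox1, 0.55 in flox2, -0.61 in triCH1flox1 and 1.05 in triCH1flox2. Without triCH1flox1 it was called over the remaining lines, at 0.70 (adjusted p = 0.00809, with 1.35% of all genes called), and in triCH1flox2 alone, at 1.05 (adjusted p = 0.0434, with 0.314% called), where that single line is assumed to vary like the others. With all lines it was at 0.29 and was not called (adjusted p = 0.608). The second Col12a1 probe set read 969.2, 1567.7, 1168.1 and 1257.3 with vehicle and 1691, 2046.4, 1104.5 and 1589.7 with DP. There the fall in triCH1flox1 and the rise in triCH1flox2 were smaller than with the one used.

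**Figure D5:**
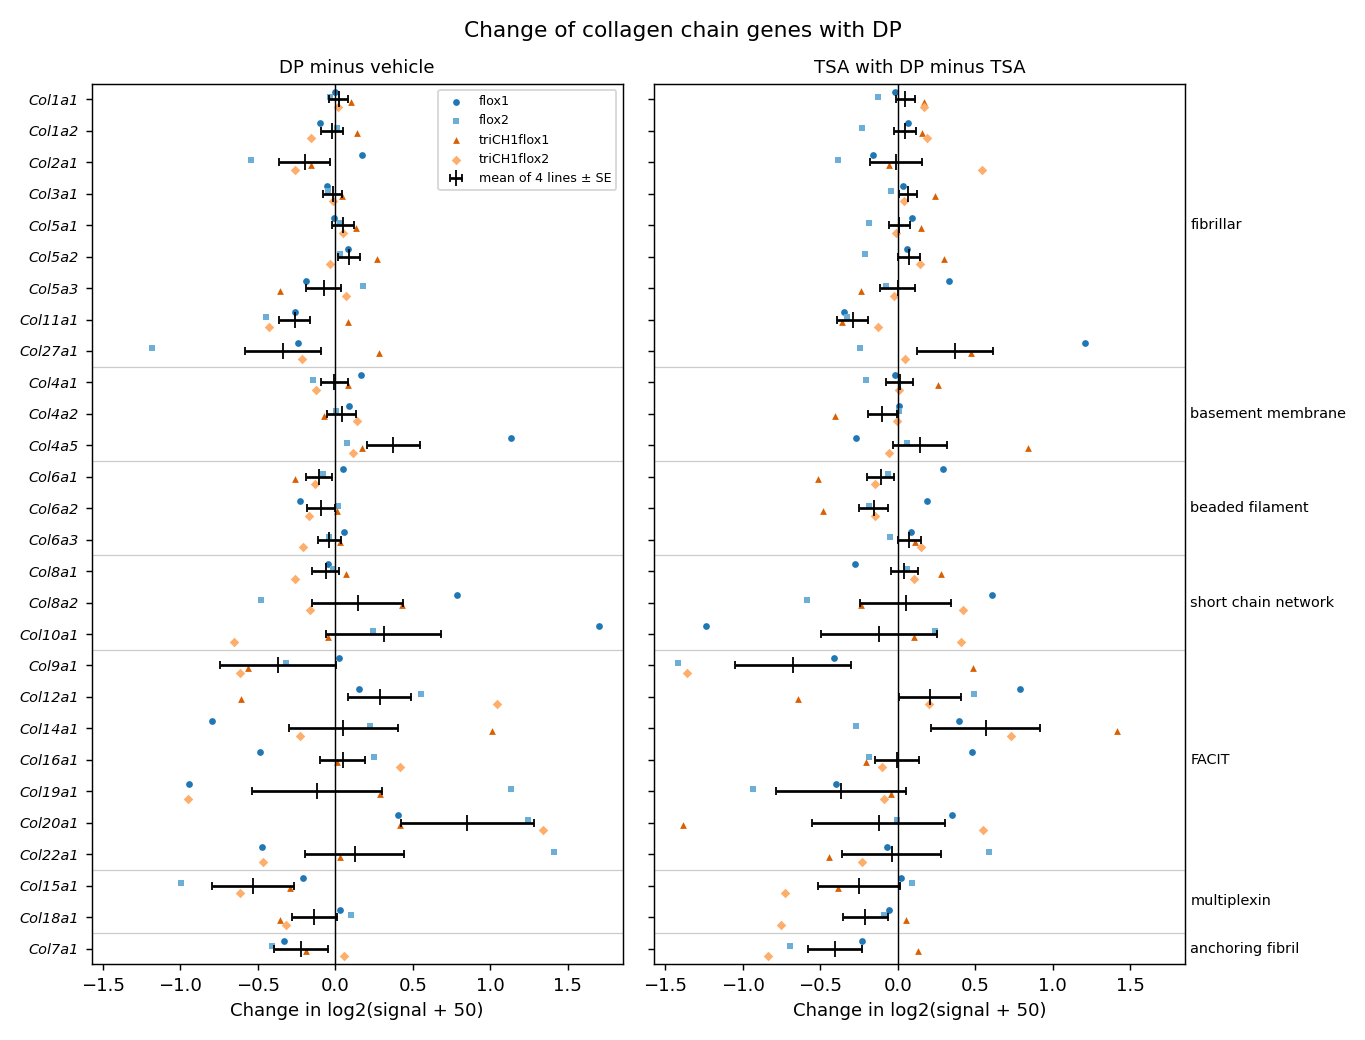
Change of the 28 detected collagen chain genes with DP, in log2(signal + 50), without TSA (left) and with TSA (right). Coloured points are the 4 lines and black bars the mean with its standard error; the genes of collagens I, III and V lie within 0.09 of 0 on the left, and Col12a1, Col20a1 and other uneven genes scatter between lines.

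Genes whose products modify, process and export collagen chains were read beside the chains. Of 25 biosynthesis genes tested, out of 32 in the list, 4 rose with DP and none fell, against 1.43% of all genes called higher and 0.271% lower, and the median of the list was 0.07. All 4 encode hydroxylases: Plod2 and Plod1 act on lysine and P4ha1 and P4ha2 on proline. Plod2 rose 2.16-fold (1.11 on the log2 scale, adjusted p = 2.59e-07), P4ha2 1.95-fold (0.96, adjusted p = 7.70e-06), P4ha1 1.59-fold (0.67, adjusted p = 0.000179) and Plod1 1.51-fold (0.59, adjusted p = 0.0495). With TSA present 1 of the 25, Plod2, rose with DP, by 0.80 (adjusted p = 8.01e-05), against 0.148% of all genes called. With TSA alone 2 rose, P4ha2 by 0.41 and Plod2 by 0.31, where 15.8% of all genes were called higher. In the presence of DP, TSA raised Mia3, which loads procollagen for export (0.47), and lowered P4ha1 (-0.30), where 17.8% of all genes were higher and 12.2% lower. None of the 25 was called between the classes, where their median was -0.16. None of the 7 fibril partner genes tested, such as Dcn and Bgn, was called in any of the 9 comparisons. Of all genes tested, 28.3% were called with TSA, 30% with TSA in the presence of DP and at most 1.7% in the other comparisons.

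Col6a3 and several other members also varied with the line within a class, along the gene that carried the conditional allele. This is a description, since each genotype is 1 line. Col6a3 line means were 5696 in flox1 and 10781 in flox2, and 6606 in triCH1flox1 and 9706 in triCH1flox2, so it was 1.89-fold and 1.47-fold higher in the line with the p300 conditional allele. The 4 arrays of each line did not overlap with those of the other line of its class. Col6a1 (1.38-fold and 1.55-fold), Col6a2 (1.37-fold and 1.62-fold) and Col18a1 (1.26-fold and 1.90-fold) differed the same way. Col5a3, another chain found in some collagen V molecules, was 1.51-fold and 1.53-fold higher in the lines with the CBP conditional allele. In all, 21 of 28 members had the same sign in both classes, against 55.7% of all genes tested.

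Other probe sets of the same genes did not always give the same value. Of the 28 genes, 14 had a further probe set that passed the filter, 17 in all. Between the classes 15 of these 17 also had values below 0, against 49.1% of all passing probe sets. They read the same genes on the same arrays and are not separate evidence. The second Col1a1 probe set, with a mean signal of 5897 against 33290, changed by 0.41 with DP (adjusted p = 0.368), where the one used gave 0.02. The second Col18a1 probe set read 46.8 on the flox1 vehicle array and 201 to 602 on the others. It changed by 0.68 with DP, against -0.14 for the one used, and neither passed. For Col8a1 the second probe set gave -0.78 between the classes (adjusted p = 0.0919), against -0.47. When every passing probe set was tested on its own, the calls were Col8a2 and Col3a1 with TSA, Col8a2 with TSA in the presence of DP, and Col2a1 between the classes.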

How the data were processed

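RNA from 4 lines under 4 treatments was hybridised to 16 Affymetrix arrays. Per the labels, the deposited intensity values are Affymetrix statistical-algorithm signals, with each array scaled to a target of 500. Software versions are not given in the sources used here. Array number limits the precision.

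Of 45101 probe sets, 34945 had 1 symbol. Intensity was analysed as log2(signal + 50), and a gene was tested when its highest probe set reached 200 on 2 arrays, which gave 11449 genes. limma 3.58.1 (R 4.3.3) fitted 8 group means with a line term and trended empirical Bayes variances. Classes were compared on 4 line means, with 2 residual degrees of freedom and 6.19 from the variance prior. The spread of a gene in that comparison therefore rests mostly on the other genes. P-values were adjusted by Benjamini and Hochberg within each of 9 comparisons over all genes tested. A call is an adjusted p under 0.05. Folds are on the log2(signal + 50) scale and understate the change of weak genes. The line term pairs arrays of the same cell line: after removal of group means their correlations were 0.159 to 0.326 in control and 0.0794 to 0.326 in triCH1 lines. The fit was tested on simulated data. Alternatives covered the pseudocount, filter, normalization, probe sets, variance prior, array weights, barcode series, single arrays and each line.

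The members and lists were chosen with earlier results of these data known. Described with values were all called members, the 5 with the highest mean signal and a fixed set of collagen I, III to VI and XVIII genes; Col11a1, Col8a1, Col27a1, Col4a5, Col12a1, Col5a3, Col7a1, Col20a1 and Col10a1 were named after their values were seen. The marker lists covered fibroblast, chondrocyte, osteoblast, epithelium, endothelium, macrophage, muscle and neural genes. Promoters are RefSeq's; 33 of 42 members matched. Figures used Python 3.11.15 and matplotlib 3.10.9.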

Additional observations from a re-analysis of the deposited data

How the results depend on the processing

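Over the alternatives run, 140 of 161 recomputed counts of called members stayed within 1.5 times the reported count. Most of these were counts of 0 that stayed 0, in comparisons without a called member, so the share says little about the calls. Nearly all of the 21 counts that moved came from the comparisons with a called member. None of the named members' called values changed sign. With TSA the count of 2 became 1, Col8a2 alone, without the filter on signal, with quantile normalization, without the variance trend, with array weights, without the flox1 vehicle array and with no replicate block. Leaving out a line gave 0 to 2. With TSA in the presence of DP the count of 1 became 0 to 1 when a line was left out. For DP over 4 lines and DP in the triCH1 lines, leaving out a line gave 0 to 1. Between the classes the count of 1 became 0 when the signal had to reach 400, when the filter had to be passed within each class, with quantile normalization, without the variance trend and on the vehicle arrays alone, 0 to 3 when a line was left out, and 4 with the line as a random block (consensus correlation 0.128). Of all genes, 0.157% were called in the class comparison, 1.79% without flox2 and 2.23% with the random block. The random block treats the arrays of a line nearly as replicates of its genotype, which they are not. The cause of the lost calls was not tested. The median difference of members between the classes was -0.44, and was -0.26 with a constant of 200, -0.27 with no filter on signal (42 members), -0.27 without flox1 and -0.23 without triCH1flox1. Array weights, the barcode series term and removal of the line term were not run on the class comparison, which used line means. Col2a1 was called in 9 of 16 alternatives, with differences from -1.65 to -1.16 and adjusted p from 0.00018 to 0.416. With a term for the barcode series Col8a2 was called with TSA at 1.35, and Col8a1 was called at -0.32 (adjusted p = 0.00988). The alternatives without the flox2 DP array, with the filter passed within each class and with every probe set tested on its own were chosen after seeing the data. Signal limits the members near 200, whose median standard error was 0.35 on the log2 scale.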

Other observations

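Col10a1, a weakly measured member, varied between lines. It read 218 to 360 in flox2 and 13.2 to 29.6 in triCH1flox1, with 97 to 184 in triCH1flox2, and these 3 lines did not overlap. In flox1 it ran from 29.7 with vehicle to 324 with TSA. Its differences were not called in any comparison. Thbs2, a matrix protein that takes part in fibril assembly, was at -1.22 between the classes and just missed the threshold (limma adjusted p = 0.0544). Itgb1, the shared beta chain of the collagen-binding integrins, was at 0.52 with DP (limma adjusted p = 0.05002, above the threshold).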
